A study of Mus musculus with 36 samples.

Results

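The liver breaks down most amino acids that are not used for protein, and 9 genes that encode enzymes of this catabolism were followed over the day in mouse liver. They are Tat, Hpd, Sds, Sdsl, Tdo2, Kmo, Hal, Gpt and Gpt2, chosen by their gene symbols, and they make up 9 of the 24883 rows of the deposited expression tables and 9 of the 13215 genes tested. The mice were wild-type C57BL/6JRj males, 16 weeks old, with chow and water at will, under a 12-h light and 12-h dark cycle in which ZT0 is lights on. The intermittent hypoxia (IH) group breathed air that fell to 5% oxygen 60 times an hour from ZT0 to ZT8 of each day for 4 weeks, and the control group received air-air cycles in the same way. Livers were taken from 3 mice per condition at ZT0, ZT4, ZT8, ZT12, ZT16 and ZT20, which gave 12 groups and 36 libraries of polyadenylated RNA. Expression is given as FPKM, fragments scaled to transcript length and to the size of the library, so levels of different genes can be set side by side per length. How many reads lie behind a value is unknown.

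Catabolism of an amino acid usually begins with removal of its amino group, by transfer to a keto acid (transamination) or by release as ammonia, and the carbon skeleton then enters the tricarboxylic acid cycle, glucose synthesis or ketone body formation. In rodent liver several of these enzymes rise with fasting, glucagon, glucocorticoids or a protein-rich diet, and several follow the daily feeding cycle. Tat and Hpd act in tyrosine breakdown, Tdo2 and Kmo in the kynurenine route of tryptophan, Sds on serine and threonine, Hal on histidine, and Gpt and Gpt2 exchange amino groups between alanine and glutamate.

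All 9 genes were above 0 in all 36 libraries. Hpd had the highest level, 1175 FPKM ± 164 (SD over 36 libraries), followed by Tat with 694 ± 277 and Tdo2 with 576 ± 109. Hpd was above Tat in 32 of the 36 libraries, but Tat was above Tdo2 in only 20. Gpt (140 ± 27.3 FPKM), Sds (121 ± 49.7), Kmo (101 ± 14.3), Gpt2 (95.5 ± 21.9) and Hal (91.9 ± 29.3) followed within overlapping spreads: each of these neighbours held its order in only 18 to 24 of the 36 libraries. Sdsl, a relative of Sds, was lowest with 8.33 ± 1.98 FPKM and lay below Hal in every library. Hepatocyte markers marked the tissue, with albumin (Alb) between 23400 and 37561 FPKM, and of 4 pancreatic acinar markers Pnlip was at 0 in 36, Cpa1 in 35 and Ctrb1 in 33 of the 36 libraries, whereas Cela1 was at 5.29 to 25.4 FPKM in all of them. In bulk liver, fewer cells of a type and less RNA per cell cannot be told apart.

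Library control ZT12 replicate 2 stood apart. Its FPKM summed to 808274 against 561964 to 626371 in the other 35, its lowest correlation with a replicate across genes was 0.949, and its summed leukocyte markers reached 108 FPKM against a median of 1.59 in control. Of that sum 106 FPKM were S100a8, a gene of neutrophils, and Ptprc, the general leukocyte marker, was at no more than 1.23 FPKM in any library. The acute-phase gene Saa1 exceeded 10000 FPKM in this library, in IH ZT0 replicate 2 and in control ZT16 replicate 3. At ZT4 and ZT8 Saa1 was at 2357 and 2435 FPKM in control ZT4 replicates 1 and 3 and at 828 in control ZT8 replicate 1, against 19.1 to 57.4 in the other 3 control libraries and 21.9 to 72.1 in the 6 IH libraries. Values at ZT0, ZT12 and ZT16 are given with the 3 libraries, and several results are therefore also given without them.

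**Figure D1:**
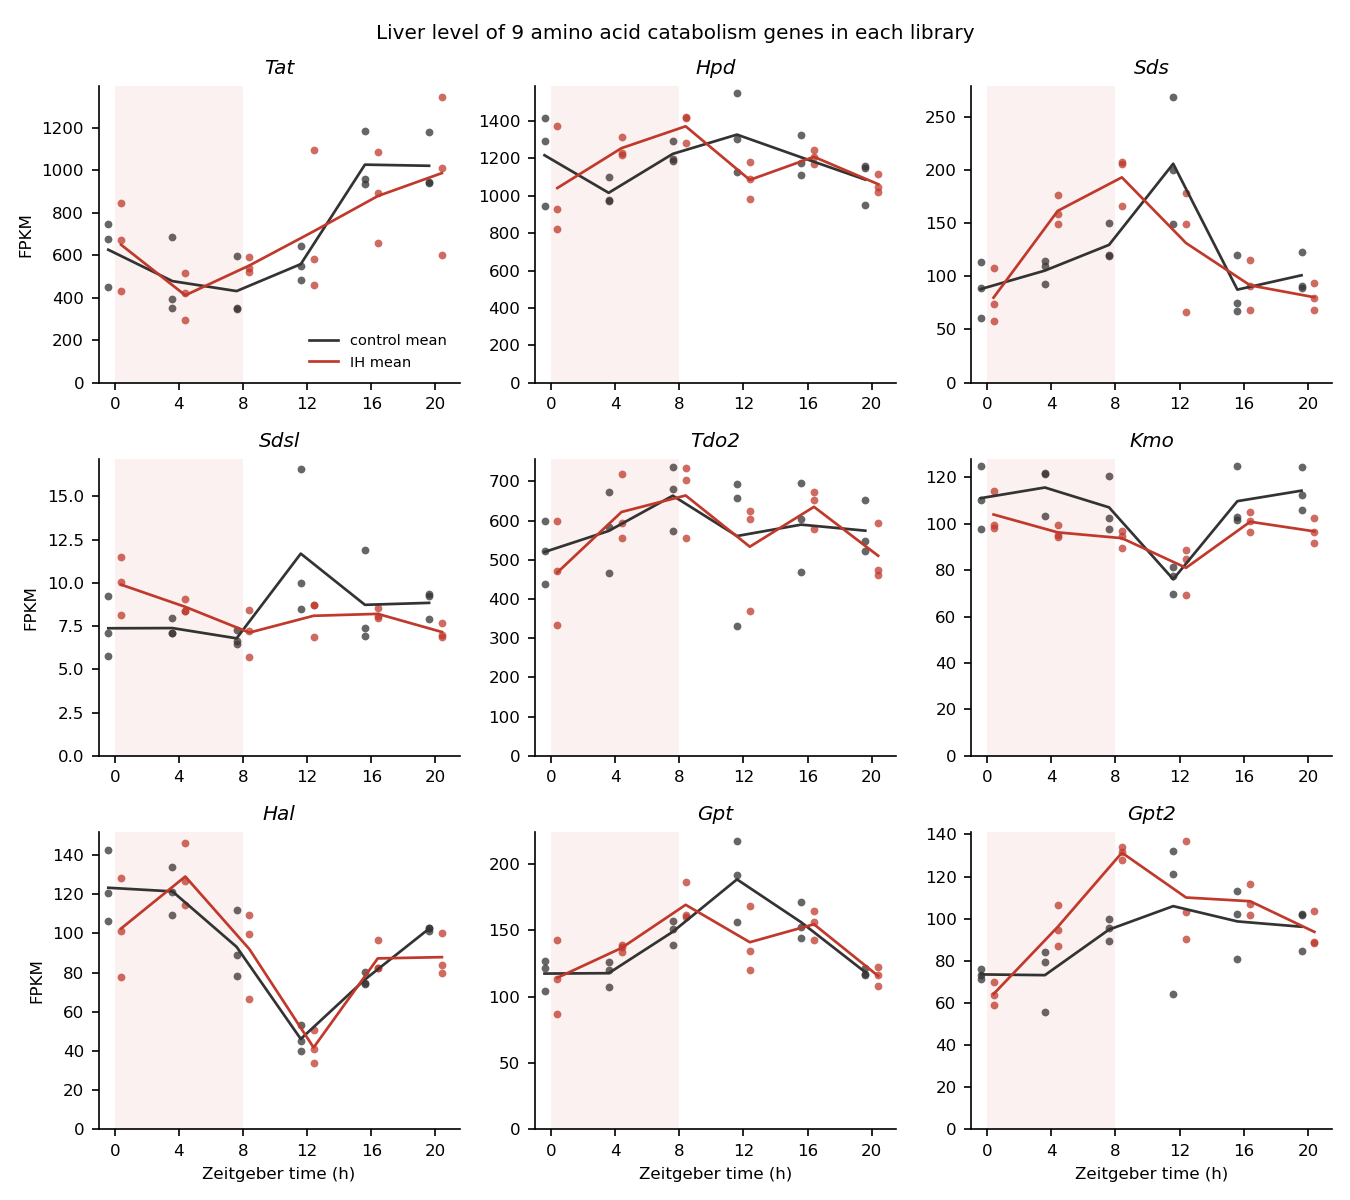
Level of the 9 genes in FPKM (vertical axes, from 0) against Zeitgeber time in hours, with 1 point per mouse (control black, IH red, set slightly apart) and lines through the means of 3 mice. The shaded hours, ZT0 to ZT8, are those of the daily hypoxia; the IH points of Sds and Gpt2 lie above all control points at ZT4 and ZT8, and the highest Sds point, 268 FPKM, is control ZT12 replicate 2.

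The first question was whether the enzymes differed in level during the hours of hypoxia. At ZT4 and ZT8 together, 4 of the 9 genes were higher in IH, namely Sds, Gpt2, Hpd and Gpt, and Kmo was lower. The other 4, Tat, Tdo2, Hal and Sdsl, did not pass the test. Differences were fitted with limma on log2(FPKM + 1) over the 12 libraries of these times with a term for time, and p was adjusted over all 13215 genes by Benjamini-Hochberg. Of all genes tested, 6.05% were called higher in IH and 1.93% lower. The median difference was 0.12 on the log2 scale over the 9 genes and 0.04 over all genes. Without the 3 control libraries at these times in which Saa1 was above 500 FPKM, an alternative chosen after seeing the data, 9 libraries remained, limma called 0 of the 9 genes and 0 of all genes, and 5 and 2047 had an unadjusted P of 0.05 or less. The estimates of the 5 genes kept their sign, with 0.63 for Sds (adjusted p 0.058), 0.56 for Gpt2 (0.058), 0.18 for Gpt (0.22), 0.16 for Hpd (0.23) and -0.098 for Kmo (0.29). The part of Saa1 in these results was not tested.

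Sds encodes serine dehydratase, which turns serine into pyruvate and ammonia, and lies on chromosome 5 (mm10, 120476526 to 120483932, plus strand). At ZT4 the control mice had 92.5, 110 and 114 FPKM and the IH mice 176, 159 and 149 FPKM. At ZT8 the control mice had 150, 120 and 119 FPKM and the IH mice 207, 205 and 166 FPKM. The lowest IH mouse was above the highest control mouse at both times. The fitted difference was 0.59 on the log2 scale (SE 0.08), a 1.51-fold higher level, with an adjusted p of 0.0065. It passed the test in all 12 fits that each left out 1 library.

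Its neighbour Sdsl, on the minus strand of chromosome 5 from 120458186 to 120472810, had a difference of 0.12 on the log2 scale (95% confidence interval -0.04 to 0.29, adjusted p 0.31). At ZT4 the control mice had 7.12, 7.97 and 7.08 FPKM and the IH mice 8.40, 8.39 and 9.06 FPKM, without overlap. At ZT8 the IH mice, with 5.73 to 8.45 FPKM, spanned the control range of 6.49 to 7.28. The interval of Sdsl ends below that of Sds, which runs from 0.42 to 0.77, but the difference between these genes was not tested.

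Gpt2 encodes the mitochondrial and Gpt the cytosolic alanine aminotransferase. Gpt2 (chromosome 8, 85492576 to 85527560, plus strand) had 84.2, 55.7 and 79.5 FPKM in control at ZT4 and 94.5, 87.1 and 107 FPKM in IH. At ZT8 it had 89.2, 95.3 and 99.9 FPKM in control and 134, 128 and 132 FPKM in IH. The IH mice were above the control mice at both times, with the wider gap at ZT8. The difference was 0.44 on the log2 scale (SE 0.09), 1.35-fold, with an adjusted p of 0.021. It passed the test in 11 of the 12 fits that each left out 1 library, all but the one without IH ZT4 replicate 3 (adjusted p 0.053), and not with quantile normalization, which gave 0.36 and an adjusted p of 0.052.

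Gpt (chromosome 15, 76695716 to 76699686, plus strand) had 120, 126 and 107 FPKM in control at ZT4 and 137, 134 and 139 FPKM in IH. At ZT8 it had 157, 139 and 151 FPKM in control and 186, 161 and 160 FPKM in IH. Again the ranges did not overlap at either time. The difference, 0.20 on the log2 scale (SE 0.05, 1.15-fold), was smaller than that of Gpt2 and had an adjusted p of 0.046. It passed the test in only 2 of the 12 fits that each left out 1 library and in none of the 3 other scalings of the libraries, in which its difference was 0.14 to 0.18.

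Of the called genes with a RefSeq promoter, Gpt2 had the largest difference, and the 250 bases before its start are shown (GRCm38.p6, plus strand, chr8:85492326-85492575). None of the 7 searched motifs, which capitals would mark, is in them.

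Gpt2: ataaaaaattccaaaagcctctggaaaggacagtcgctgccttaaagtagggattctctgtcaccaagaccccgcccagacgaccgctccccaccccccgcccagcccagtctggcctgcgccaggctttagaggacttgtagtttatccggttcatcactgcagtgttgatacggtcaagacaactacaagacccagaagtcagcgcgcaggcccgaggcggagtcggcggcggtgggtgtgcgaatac

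Of the tyrosine enzymes, Hpd was higher in IH and Tat did not pass the test. Hpd, the hydroxyphenylpyruvate dioxygenase of the second step (chromosome 5, 123171807 to 123182727, minus strand), had 974, 1099 and 975 FPKM in control at ZT4 and 1220, 1228 and 1317 FPKM in IH. At ZT8 it had 1195, 1185 and 1295 FPKM in control and 1420, 1414 and 1283 FPKM in IH, with the lowest IH mouse inside the control range. The difference was 0.23 on the log2 scale (SE 0.05, 1.18-fold, adjusted p 0.028). It passed the test in 4 of the 12 fits that each left out 1 library, and not when median ratios scaled the libraries (adjusted p 0.059).

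Tat, tyrosine aminotransferase and the first step of the route (chromosome 8, 109990437 to 109999803, plus strand), had the widest interval of the 9 genes. At ZT4 its control mice had 354, 393 and 688 FPKM and its IH mice 421, 296 and 517 FPKM. At ZT8 the control mice had 351, 348 and 595 FPKM and the IH mice 522, 542 and 592 FPKM. The ranges overlapped at both times. The difference was 0.11 on the log2 scale (95% confidence interval -0.35 to 0.56, adjusted p 0.78).

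Of the tryptophan enzymes, Kmo was lower in IH and Tdo2 did not pass the test, and the difference between them was not tested. Kmo, kynurenine monooxygenase (chromosome 1, 175620381 to 175662116, plus strand), was the only one of the 9 genes that was lower in IH. At ZT4 it had 122, 104 and 122 FPKM in control and 99.4, 95.3 and 94.1 FPKM in IH. At ZT8 it had 121, 103 and 97.8 FPKM in control and 94.8, 96.9 and 89.7 FPKM in IH. The ranges were apart at both times, by less than 1 FPKM at ZT8. The difference was -0.22 on the log2 scale (SE 0.06, 0.86-fold, adjusted p 0.044), and it passed the test in 3 of the 12 fits that each left out 1 library.

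Tdo2, the tryptophan dioxygenase that opens this route (chromosome 3, 81957090 to 81976202, minus strand), had group means of 574 FPKM in control and 622 in IH at ZT4 and of 663 and 664 at ZT8. Its difference was 0.06 (95% confidence interval -0.18 to 0.30). Hal, histidine ammonia-lyase (chromosome 10, 93488768 to 93519304, plus strand), had means of 121 FPKM in control and 129 in IH at ZT4 and of 93.1 and 91.9 at ZT8. Its difference was 0.03 (95% confidence interval -0.25 to 0.30), with overlapping ranges at both times.

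**Figure D2:**
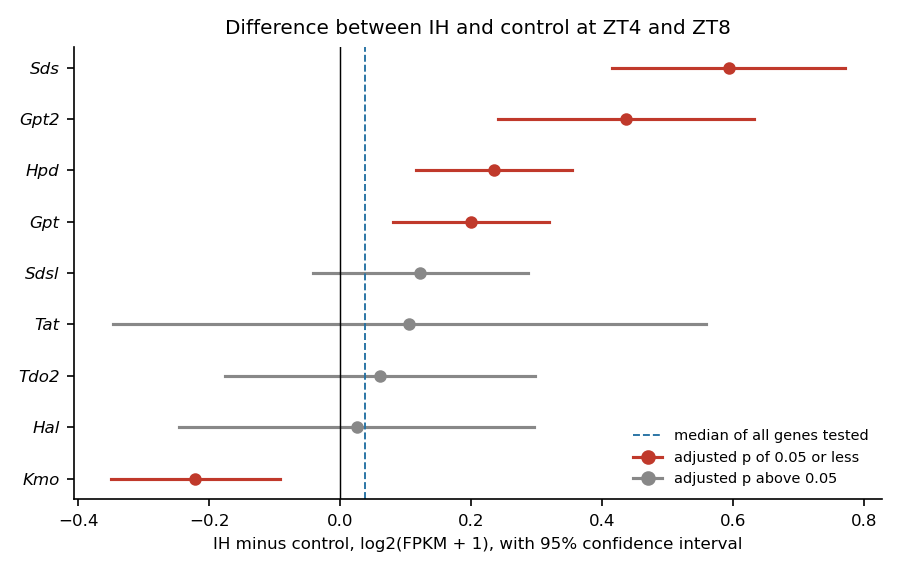
Difference between IH and control at ZT4 and ZT8 in log2(FPKM + 1) (horizontal axis) for each gene, with points for the limma estimate over 12 libraries and bars for its 95% confidence interval. Red marks an adjusted p of 0.05 or less, and the dashed line is the median of all 13215 genes, 0.04; Sds, Gpt2, Hpd and Gpt lie to its right, Kmo to its left, and Tat has the widest bar.

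The second question was how far these differences held through the rest of the day. At single time points, 0 of the 54 pairs of gene and time passed an adjusted p of 0.05 in limma, in a fit over all 36 libraries, and 10 pairs had an unadjusted P under 0.05, 5 higher and 5 lower in IH. Over all pairs of the 13215 genes and 6 times, 0.195% were called higher and 0.129% lower, and 6.37% and 3.86% had an unadjusted P under 0.05 in these directions. The 54 pairs include ZT4 and ZT8. At ZT4 the estimate of Sds was 0.61 here (SE 0.29, adjusted p 0.29), against an SE of 0.08 in the fit over 12 libraries. That fit joined ZT4 and ZT8 and took its spread from them alone. A missed call at a single time thus does not show that a difference ended.

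The sign of the estimates changed with the time of day. At ZT4, 7 of the 9 estimates were above 0 (all genes 68.0%), and at ZT8 6 of 9 (55.5%). At ZT12, 6 of 9 were below 0, and at ZT20 all 9 were, whereas 57.7% and 63.1% of all genes were above 0 at these times. The ZT12 share was taken with control ZT12 replicate 2, which had the lowest median ratio size factor of all libraries, 0.759. The share of all genes without that library was not counted. Without control ZT12 replicate 2 the ZT12 estimate of Gpt2 turned from 0.10 to -0.22, with an unadjusted limma P of 0.16. That of Tdo2 moved from -0.04 to -0.38 (unadjusted P 0.10). At ZT0, 7 of 9 were below 0 (44.5% of all genes above). At ZT16, 5 of 9 were above 0 (59.4%).

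At ZT12, 4 h after the end of hypoxia, Sds had 200, 268 and 149 FPKM in control and 149, 66.6 and 178 FPKM in IH. The estimate was -0.72 on the log2 scale (SE 0.29, unadjusted P 0.019, adjusted p 0.13), opposite in sign to that at ZT4 and ZT8. The 268 FPKM are from control ZT12 replicate 2, and without that library the estimate was -0.51 (unadjusted P 0.12). The low IH value, 66.6 FPKM, is from replicate 2, in which Saa1 was at 2470 FPKM. The ranges overlapped.

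Gpt at ZT12 had 192, 217 and 157 FPKM in control and 135, 120 and 168 FPKM in IH. Its estimate, -0.42 (SE 0.14), had the smallest P of the 54 pairs, 0.0047 unadjusted, and an adjusted p of 0.085. Without control ZT12 replicate 2 it was -0.31 (unadjusted P 0.041, adjusted p 0.35). Sdsl at ZT12 had 10.0, 16.6 and 8.47 FPKM in control and 8.70, 6.88 and 8.72 FPKM in IH, and its estimate moved from -0.43 to -0.17 when that library was left out. Leaving out control ZT12 replicate 3 instead brought Gpt, Sds and Sdsl at ZT12 under an adjusted p of 0.05, with estimates of -0.54, -0.93 and -0.62. Over all genes that fit called 3303 pairs of gene and time, against 257 with all 36 libraries. Whether the ZT12 differences of these 3 genes passed the test therefore depended on which control mice were counted.

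**Figure D3:**
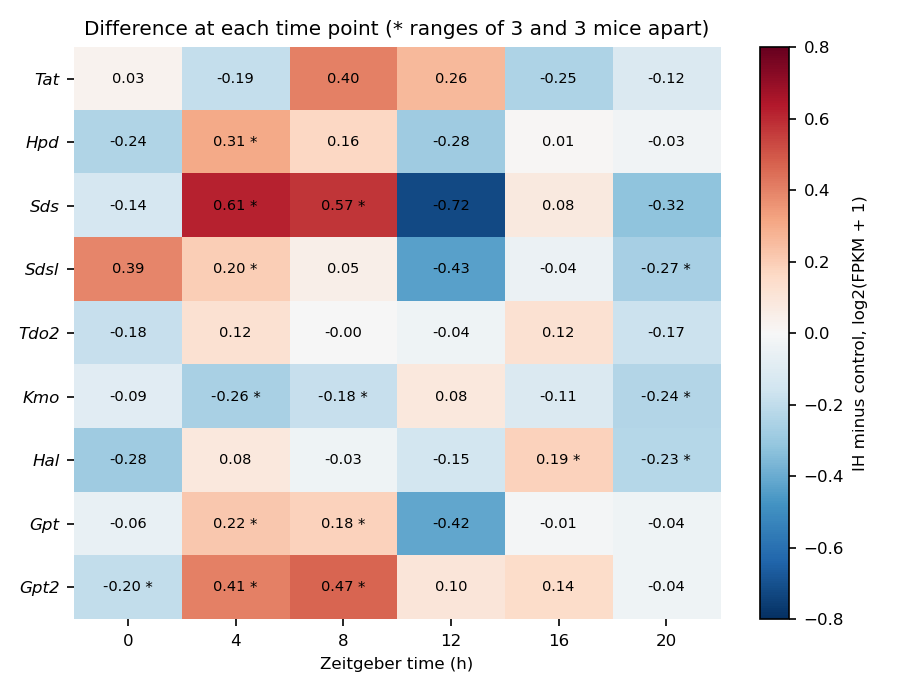
Difference between IH and control in log2(FPKM + 1) at each Zeitgeber time (columns) for each gene (rows), from limma over 36 libraries, with red for higher and blue for lower in IH. An asterisk marks cells in which all 3 IH mice lay above or below all 3 control mice; no cell passed an adjusted p of 0.05, and the ZT20 column holds no value above 0.

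All 3 IH mice lay above all 3 control mice for 5 of the 9 genes at ZT4 (Hpd, Sds, Sdsl, Gpt and Gpt2; all genes 26.7%) and for 3 at ZT8 (Sds, Gpt and Gpt2; all genes 11.0%). They lay below for Kmo at ZT4 (7.79%) and ZT8 (7.16%). At ZT16 they lay above for Hal (10.0%), with 82.3, 82.5 and 96.8 FPKM against 74.2, 80.5 and 74.6. At ZT20 they lay below for Kmo, Hal and Sdsl (4.18%). Hal then had 83.6, 100.1 and 79.8 FPKM in IH against 101, 103 and 103 FPKM in control, and the control mice were closer to each other than the IH mice. At ZT0 they lay below for Gpt2 (6.21%), with 63.6, 59.0 and 70.0 FPKM against 75.9, 71.3 and 73.2. Gpt2 thus lay below control at ZT0 and above it at ZT4 and ZT8. With Sdsl and Hal it was 1 of 3 of the 9 genes that lay above at some time and below at another, which 13.0% of all genes did. Of the 9 genes, 0 lay above at ZT0 (4.59%) or ZT20 (11.8%), below at ZT16 (3.84%), or apart either way at ZT12 (6.34% above, 6.74% below).

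Over all 6 time points, 0 of the 9 genes passed an adjusted p of 0.05 in limma, where 0.303% of all genes were called higher in IH and 0.0530% lower. Only Kmo had an unadjusted P under 0.05, as did 10.8% of all genes. Kmo averaged 106 FPKM ± 16.7 (SD over 18 mice) in control and 95.4 ± 9.22 in IH, and its difference was -0.13 on the log2 scale (SE 0.04, unadjusted P 0.0053, adjusted p 0.23). Its estimate was below 0 at every time point but ZT12. Gpt2 averaged 90.4 ± 20.0 FPKM in control and 101 ± 23.2 in IH, a difference of 0.15 (95% confidence interval -0.02 to 0.31). Sds, raised at ZT4 and ZT8, differed by 0.01 over the whole day (interval -0.27 to 0.29).

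The third question was whether the daily rhythm of the enzymes differed. A 24-h cosine was fitted in the 18 libraries of each condition, and a gene was called rhythmic at a nominal P of 0.01, the kind of threshold the study used. In control, 4 of the 9 genes were rhythmic, Tat, Sds, Hal and Gpt (all genes 20.0%). In IH the same 4 were and also Gpt2, 5 of 9 (all genes 39.9%). The call of Sds in control (P 0.0094) held in only 6 of the 18 fits that each left out 1 library. It also missed the threshold without a filter (P 0.014), with median ratio scaling (P 0.012) and with JTK_Cycle, another rhythm test (P 0.042). The call of Gpt in IH (P 0.0057) held in 10 of the 18 fits that each left out 1 library. Of all genes, 15.5% were rhythmic in both conditions, 24.4% in IH alone and 4.55% in control alone, against 4, 1 and 0 of these 9. The cosine differed between the conditions for 0 of the 9 genes and for 0 of all 13215 at an adjusted p of 0.05. At an unadjusted P under 0.05 it differed for Sdsl alone among the 9 (P 0.043), and for 4.91% of all genes.

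Hal had the widest range of group means over the day. Its mean fell from 123 FPKM at ZT0 to 46.1 at ZT12 in control and from 129 at ZT4 to 41.7 at ZT12 in IH, ratios of 2.68 and 3.10. At ZT12 the 3 control mice had 53.0, 45.2 and 39.9 FPKM and the 3 IH mice 33.6, 41.0 and 50.4 FPKM, below every Hal value at the other times. The fitted maximum was at 0.91 h in control (P 3.5e-06) and 1.25 h in IH (P 0.0026). The 250 bases before the RefSeq start of Hal are shown because of this range (GRCm38.p6, plus strand, chr10:93488518-93488767). Capitals mark a match to TTGNNCAA, a C/EBP site, 150 bases before the start.

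Hal: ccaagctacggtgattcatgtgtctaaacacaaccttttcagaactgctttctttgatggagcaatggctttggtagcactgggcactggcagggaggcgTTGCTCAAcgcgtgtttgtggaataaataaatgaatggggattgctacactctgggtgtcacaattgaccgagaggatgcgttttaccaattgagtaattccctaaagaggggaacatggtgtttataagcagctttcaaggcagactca

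RefSeq promoters, 250 bases before to 50 after the start, matched 6 of the 9 genes: Tat, Hpd, Tdo2, Kmo, Hal and Gpt2. Both strands were searched for 7 motifs. CACGTG (E-box, in 7.15% of 32851 promoters), TTATGNAA (D-box, 3.38%), TGACGTCA (CRE, 1.79%) and TGACG (CRE core, 20.8%), of which the last lies within the full CRE, were in none of the 6. TTGNNCAA (6.4% of promoters) was in Hal and Kmo, TAGGTCA (REV-ERB and ROR element, 2.61%) in Tdo2, and TGTTCT (core of a glucocorticoid receptor site, 19.0%) in Kmo. These are matches of letters in a short window.

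Tat peaked in the dark phase in both conditions. Control means were 1027 FPKM at ZT16 and 1021 at ZT20 against 431 at ZT8, and IH means 879 and 987 against 412 at ZT4. Its fitted maximum was at 18.4 h in control (P 9.7e-06) and 17.4 h in IH (P 0.0033). IH mice were more scattered at ZT12 and ZT20: 462, 581 and 1095 FPKM at ZT12 and 604, 1345 and 1013 FPKM at ZT20. With a test over the 6 time points as a factor, Tat was no longer rhythmic in IH (P 0.033).

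Sds, Gpt and Gpt2 reached their highest mean at ZT12 in control and at ZT8 in IH. For Sds these means were 206 FPKM ± 59.8 (SD, n = 3) and 193 ± 23.0. For Gpt they were 189 ± 30.5 and 169 ± 14.8, and for Gpt2 106 ± 36.4 and 131 ± 3.08. The control mice of Gpt2 at ZT12 had 132, 64.4 and 121 FPKM, with 64.4 from replicate 2. Hpd, not rhythmic in either condition, also had its highest mean at ZT12 in control, 1328 FPKM ± 213, and at ZT8 in IH, 1372 ± 77.1. Its control mice at ZT12 had 1304, 1552 and 1128 FPKM, with 1552 from replicate 2, and its control mean at ZT8 was 1225. The ZT12 maximum of Hpd in control thus rested on that library.

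Among the 4 genes rhythmic in both conditions, the fitted maximum was earlier in IH for Sds (10.3 h to 7.66 h), Gpt (12.2 h to 10.3 h) and Tat, and later for Hal by 0.34 h. The shift of Gpt was -1.94 h. The cosine was also fitted to the 6 mice of each replicate number alone, a number not treated as a pairing. The maximum of Gpt was then at 11.8, 12.6 and 12.3 h in control and at 9.86, 10.6 and 10.5 h in IH. The shift of Sds was -2.68 h, and -2.18 h without control ZT12 replicate 2. Its maxima by replicate number were at 9.45, 10.5 and 13.0 h in control and at 7.97, 6.04 and 8.72 h in IH. For both genes the 3 IH maxima were earlier than the 3 control maxima. The same held for Gpt2, with 10.8, 11.7 and 10.9 h in IH against 12.7, 16.8 and 12.2 h in control. The separation was not particular to these 3 genes. It was also seen for Hpd, rhythmic in neither condition, with 9.16, 9.21 and 4.75 h in IH against 9.38, 12.9 and 16.8 h in control. Ahcy, Oat and Fah, of the wider pathway below, showed it as well. The share of all genes with such a separation was not counted. Gpt2 moved from 14.0 h, where its control rhythm missed the threshold (P 0.028), to 11.1 h in IH (P 0.0004). Over the 2047 genes rhythmic in both conditions the median shift was -0.65 h, and 71.1% peaked earlier in IH. The interaction test gave P of 0.13 for Gpt, 0.082 for Sds and 0.099 for Gpt2, unadjusted, and an adjusted p of 0.92 for each, so the shifts were not called.

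**Figure D4:**
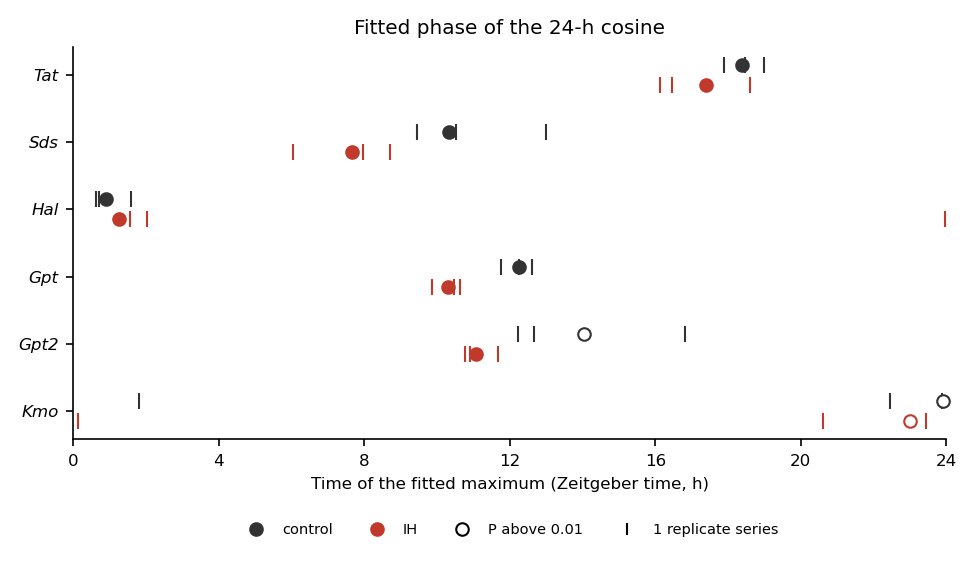
Time of the fitted maximum of a 24-h cosine (horizontal axis, Zeitgeber time in hours) for 6 genes in control (black) and IH (red), with circles for the fit over 18 libraries and ticks for fits to each replicate series of 6 libraries. Open circles mark a rhythm P above 0.01. The 3 IH ticks lie left of the 3 control ticks for Gpt, Sds and Gpt2, whereas those of Hal and Tat overlap. How common this is over all genes was not counted. The times 0 h and 24 h are the same.

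The test with time point as a factor, which asks whether the difference between IH and control varies over the 6 times in any shape, called 0.136% of all genes at an adjusted p of 0.05 and 14.2% at an unadjusted P under 0.05. Of the 9 genes, 0 passed the adjusted threshold, and Sds (P 0.021), Gpt (P 0.036) and Sdsl (P 0.039) had the smallest P.

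Kmo, Tdo2, Hpd and Sdsl were rhythmic in neither condition. Kmo had its lowest mean at ZT12 in both, 76.1 FPKM in control and 81.0 in IH, as did Hal. The rhythm P of Kmo was 0.022 in control and 0.031 in IH. Tdo2 and Hpd varied little over the day, with a ratio of highest to lowest group mean of 1.28 and 1.31 in control and 1.42 and 1.32 in IH.

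The 3 libraries with Saa1 above 10000 FPKM set several of the extremes. Tdo2 was lowest of its group of 3 in all of them, with 333 FPKM against 472 and 598 at IH ZT0, 331 against 657 and 694 at control ZT12, and 468 against 604 and 696 at control ZT16. Gpt2 was also lowest in all 3, with 59.0, 64.4 and 80.7 FPKM. Among all genes 22.3% were lowest in all 3, which is close to the 2 of 9 seen here. Tat and Sdsl were highest of their group in all 3, as were 5.72% of all genes. Tat had 846, 645 and 1186 FPKM there and Sdsl 11.5, 16.6 and 11.9 FPKM. Without these libraries Gpt2 was rhythmic in control as well (P 1.9e-05), Sds was not (P 0.027), and neither was Gpt in IH (P 0.013). What these libraries share was not tested.

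**Figure D5:**
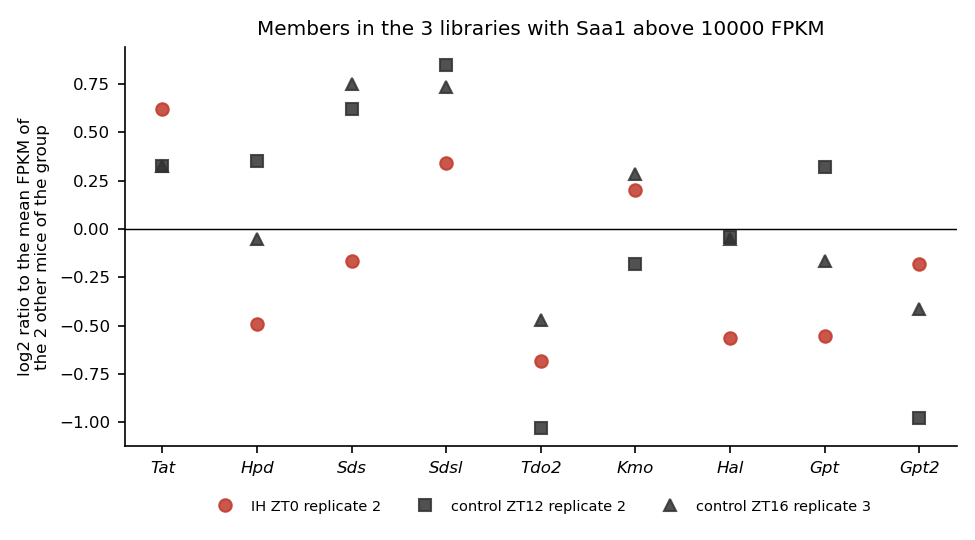
For each gene (horizontal axis), log2 ratio of its FPKM in a library with Saa1 above 10000 FPKM to the mean of the other 2 mice of its group, with 1 symbol per library (IH red, control black). Tdo2 and Gpt2 lie below 0 and Tat and Sdsl above 0 in all 3 libraries, Hal lies below 0 in all 3 but close to 0 in the control libraries, and Hpd, Sds, Kmo and Gpt fall on both sides.

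The wider pathway was read from 66 other tested genes in 9 lists of amino acid catabolism. At ZT4 and ZT8, 9 of the 66 were higher in IH and 1 was lower, beside 6.05% and 1.93% of all genes, and the median difference was 0.11 on the log2 scale, beside 0.04 over all genes. The higher genes were spread over 6 lists. Prodh, which starts proline breakdown, was 0.45 higher on the log2 scale (SE 0.08, adjusted p 0.012), and Bcat2, a branched-chain aminotransferase, 0.42 higher (SE 0.06, adjusted p 0.0070). Gcat, of threonine breakdown, was 0.37 higher, Cdo1, which oxidises cysteine, 0.37, Dhtkd1, of lysine breakdown, 0.37, Hoga1, of hydroxyproline breakdown, 0.34, Auh, of leucine breakdown, 0.23, Ahcy, which splits S-adenosylhomocysteine, 0.23, and Fah, the last enzyme of tyrosine breakdown, 0.19. Of the 6 phenylalanine and tyrosine genes on the list, Fah alone passed the test, and of Hpd and Tat only Hpd did. None of the 9 tryptophan and kynurenine genes, 3 histidine genes or 3 other transamination genes passed the test.

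Oat, ornithine aminotransferase, was the 1 gene that was lower, by -0.41 (SE 0.09, adjusted p 0.026). It was also the only one of the 66 called over all time points (-0.35, SE 0.08, adjusted p 0.041), with means of 330 FPKM in control and 216 in IH at ZT8. Oat is also on the list of pericentral hepatocyte markers. The summed level of that list, Oat included, had a median of 782 FPKM in control (502 to 1066) and of 814 in IH (681 to 1049). At single time points 1 gene passed, Cbs, which makes cystathionine, at ZT12 (-0.48, SE 0.11, adjusted p 0.044), with means of 95.8 FPKM in control and 68.7 in IH. This control mean includes control ZT12 replicate 2, the library that stood apart, and the estimate without it is not given here.

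Rhythms were called for 22 of these 66 genes in control (all genes 20.0%), for 29 in IH (39.9%) and for 18 in both (15.5%). Of their 66 estimates of IH minus control, 17 were above 0 at ZT0 (all genes 44.5%), 54 at ZT4 (68.0%), 45 at ZT8 (55.5%), 26 at ZT12 (57.7%), 54 at ZT16 (59.4%) and 24 at ZT20 (63.1%). The ZT12 values again include control ZT12 replicate 2.

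The genes most like each enzyme were taken as those with the highest Pearson r of log2(FPKM + 1) over the 12 group means, given as a description over points that share their time of day. Hal was most like Ppp1r21 (0.99) and Cyp2j5 (0.97), Gpt most like Hsd17b10 (0.98) and Acy1 (0.94), and Tat most like Etohi1 (0.95) and the clock repressor Cry1 (0.93). Gpt2 was most like Syde2 (0.94) and Cry2 (0.94), and Sds most like Zswim7 (0.95) and Gpx7 (0.95). Kmo was most like Atg4a (0.94). For Hpd, Tdo2 and Sdsl the highest r was 0.91 (Slc25a11), 0.92 (Gpc1) and 0.91 (Tnfsfm13).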

How the data were processed

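Liver RNA of 36 mice was sequenced after poly-A selection. Per the labels and the study's methods, the authors aligned reads to mm10 with TopHat2 2.1.1 on Bowtie2 and estimated expression with Cufflinks 2.2.1, deposited as FPKM per replicate. The gene annotation and further scaling are not given in the sources used here. Files hold no counts, so the depth, and its limit on low values, are unknown. Condition, time and replicate came from the labels; the table for each condition was known from its name. Repeated symbols (280) were dropped.

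Here limma 3.58.1 (R 4.3.3, intensity trend) was run on log2(FPKM + 1) of the 13215 genes whose mean reached 0.1 FPKM. A pseudocount of 1 understates changes of low genes such as Sdsl. Levels were called at a Benjamini-Hochberg adjusted p of 0.05, rhythms at a nominal P of 0.01. The fits were tested on simulated data. Gene coordinates are from GENCODE vM21 (mm10). Each mouse was 1 replicate; the labels name no batches. Same-numbered mice did not pair: residuals of 18 pairs correlated by 0.054 on average, from -0.179 to 0.294.

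The 9 genes, all named as given, the 9 lists (67 genes, 66 tested), motifs and the rule for other named genes (those that passed a test, and the 2 most alike) were chosen with earlier results of these data known. Alternatives were pseudocount, filters, 3 scalings, thresholds, 2 other rhythm tests, a shared spread, a replicate block, ZT4 or ZT8 alone, and leaving out libraries. Figures used Python 3.11.15 and matplotlib 3.10.9. Protein sequences were not used here. One gene that falls under the rule for named genes is not reported here.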

Additional observations from a re-analysis of the deposited data

Results flagged for a closer look

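For 3 genes all 3 IH mice lay above all 3 control mice at one time point and below them at another, as for 13.0% of all 13215 genes. For Gpt2 the difference between IH and control was 0.60 higher on the log2 scale at ZT4 than at ZT0 and 0.66 higher at ZT8 than at ZT0. For Sdsl it was 0.47 higher at ZT4 than at ZT20. For Hal it was 0.41 higher at ZT16 than at ZT20. These pairs of time points were not tested against each other. The test over all 6 time points gave an unadjusted P of 0.13 for Gpt2, 0.039 for Sdsl and 0.40 for Hal, with adjusted p of 0.48, 0.32 and 0.70.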

How the results depend on the processing

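At ZT4 and ZT8 the count of 5 of 9 genes stayed at 5 with a pseudocount of 0.1, a mean of at least 1 FPKM, the replicate block and a nominal P of 0.01. It was 3 without a filter, 3 with median ratio scaling, 3 with quantile normalization, 1 at ZT4 alone, 0 at ZT8 alone, where 6 libraries are fitted and 2 of the 9 genes had an unadjusted P of 0.05 or less, and 0 without the 3 control libraries at these times with Saa1 above 500 FPKM, chosen after seeing the data, where 9 are fitted and 5 had such a P. It ran from 1 to 5 when libraries were left out one at a time, being 1 (Sds) without IH ZT4 replicate 3. All 12 alternatives kept the direction of the 5 called genes, and Sds passed in 10 of them, Gpt2, Hpd and Kmo in 8 each and Gpt in 5. These counts include the alternative without libraries with Saa1 above 10000 FPKM. It left out no ZT4 or ZT8 library, so it repeats the main fit. They also include the nominal P of 0.01, which changes only the threshold. Over all time points the count of 0 became 1 (Kmo) at a nominal P of 0.01. At single time points it became 1 (Gpt at ZT12) at a nominal P of 0.01 and 1 (Gpt2 at ZT4) without the libraries with Saa1 above 10000 FPKM, and ran from 0 to 3 leaving out 1 library. In control 3 to 5 genes were rhythmic over all alternatives. In IH 4 or 5 were, except 2 with JTK_Cycle, where Gpt, Hal and Tat did not pass. The count of genes whose cosine differed was 0 throughout.

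Signs turned only for estimates that no test called. At ZT4 and ZT8 these were Hal (-0.039 with median ratio scaling, -0.028 with quantile normalization, -0.034 at ZT8 alone, -0.031 to 0.13 leaving out 1 library), Tdo2 (-0.0033, -0.021, -0.0017 and -0.0089 to 0.12 in the same order, and -0.11 without those 3 control libraries) and Tat (-0.19 at ZT4 alone). Over all time points they were Gpt (0.029) and Sdsl (0.038) without the libraries with high Saa1, Hpd there (0.044), rescaled to a common sum (0.0054) and with quantile normalization (0.033), and Sds (-0.032) and Tat (-0.022) with median ratio scaling. Leaving out 1 library gave Gpt -0.044 to 0.0072, Hpd -0.034 to 0.017, Sds -0.019 to 0.098, Sdsl -0.053 to 0.032, Tat -0.034 to 0.072 and Tdo2 -0.071 to 0.012. The cause was not tested.

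Over all genes, 1054 were called at ZT4 and ZT8, but 614 without a filter, 1636 at a nominal P of 0.01, 0 at ZT8 alone (1475 at an unadjusted P of 0.05), 0 without those 3 control libraries (2047) and 231 to 1342 leaving out 1 library. Over all time points 47 were called, 27 with a common sum, 183 without the high-Saa1 libraries, 442 at a nominal P and 28 to 157 leaving out 1 library. At single time points 257 pairs of gene and time were called, 168 without a filter, 52 with a common sum, 425 with quantile normalization, 143 with the replicate block, 1349 without the high-Saa1 libraries, 2780 at a nominal P, and 26 to 3303 leaving out 1 library. The cosine differed for 0 genes, but for 123 at a nominal P and 18 with time point as a factor. With the replicate block, Sds was not rhythmic in control (P 0.013), and no other of the 9 genes changed its call. FPKM without counts give no depth, so the precision of low values such as those of Sdsl cannot be set.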
